A study of Mus musculus with 6 samples.

Results

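The ETS transcription factors that act downstream of fibroblast growth factor (FGF) signalling were examined in RNA-Seq libraries of a mouse podocyte cell line (MPC, conditionally immortalized). Podocytes wrap the filtering capillaries of the glomerulus. The set held 9 genes, *Etv1*, *Etv4*, *Etv5*, *Etv6*, *Ets1*, *Ets2*, *Elk1*, *Elk3* and *Elk4*, chosen by symbol among the 24469 loci of the expression table. A symbol with several loci was to be represented by the locus with the highest mean level, but each of the 9 symbols had a single locus, so no measured value decided which loci were used. The list itself was drawn up with earlier results of these data in view, and its counts are therefore given as a description. The libraries formed 3 groups of 2. All cells were starved for 12 h and kept in high glucose (HG, 25 mM) for 12 h, and those of 2 groups were pretreated for 1 h with 100 ng/mL of recombinant FGF1, either the wild-type protein (rFGF1WT) or the variant rFGF1ΔHBS, in which substitutions weaken binding to heparan sulfate. The HG group received no FGF1, and no normal-glucose library was used here. Nothing in the labels says that the 2 libraries of a group came from separate cultures, so the spread between them may be technical, and p-values then measure only that spread. The cells were used at passages 10 to 15, grown at 33 °C with interferon gamma and differentiated for 10 days at 37 °C without it, so the results describe a single immortalized line.

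ETS factors share a winged helix-turn-helix domain that binds DNA around the core letters GGAA, and many of them are substrates or targets of the ERK kinase. FGF receptors activate ERK through the adaptor Frs2, Ras and Raf. *Etv1*, *Etv4* and *Etv5* form the PEA3 subfamily, whose transcription is switched on by FGF and held down by the repressor Capicua until ERK inactivates it, which is why their messages are long used as readouts of FGF signalling. *Elk1*, *Elk3* and *Elk4* encode the ternary complex factors, which bind next to serum response factor and are themselves phosphorylated by ERK. *Ets1* and *Ets2* carry an ERK site beside a pointed domain, and *Etv6* encodes a repressor with a pointed domain. In the developing kidney, *Etv4* and *Etv5* act in the ureteric bud downstream of the receptor Ret.

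Promoter windows from RefSeq on GRCm38.p6, the 250 bases before an annotated start, were found for 7 of the 9 genes, 11 windows in all. *Etv4* and *Ets1* had none. The windows were searched on both strands for the octamers bound by Capicua (TGAATGAA, TGAATGAG, TGAATGGA and TGAATGGG), an AP-1 site (TGAGTCA), a cyclic AMP response element (TGACGTCA) and an ETS site (CCGGAAGT). None of these motifs contains another. The Capicua octamers were written into the search after the sequence below had been seen, so its content is a description. One window of *Etv5* held 3 of these octamers, and it is shown because *Etv5* is the member whose change was called under every alternative. It lies on the minus strand at chr16:22438369-22438618, before an internal start of the gene and outside the annotated exons, and is shown with the octamers in capitals.

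*Etv5*, internal start: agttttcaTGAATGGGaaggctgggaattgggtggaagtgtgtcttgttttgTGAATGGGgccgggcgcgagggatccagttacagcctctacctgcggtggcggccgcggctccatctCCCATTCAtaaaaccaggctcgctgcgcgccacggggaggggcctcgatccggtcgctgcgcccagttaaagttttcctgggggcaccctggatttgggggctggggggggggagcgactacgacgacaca

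The first 2 octamers read TGAATGGG and begin 242 and 198 bases before the start. The third reads CCCATTCA, which is TGAATGGG on the other strand, and begins 131 bases before it. Of all 32851 windows, 1267 (3.86%) held at least 1 Capicua octamer and 14 (0.0426%) held at least 3. None of the other 10 windows of the set held one. A match to CCGGAAGT, present in 2.88% of all windows, was seen in 1 of the 3 windows of *Elk4*, and the AP-1 and cyclic AMP motifs were seen in none of the 11. Binding was not measured, and these matches are letters in a window only.

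Levels are given in FPKM, the fragments of a locus per kilobase of transcript and per set number of fragments of the library, so they may be compared between genes. FPKM carry no read totals. Of the low values of loci with a single transcript, 23.4% to 25.4% lay on a common step (2.0% by chance). If that step is 1 fragment, the depth of the libraries differed little (0.973 to 1.01 of the first HG library). With the midpoints between steps included, 33.9% to 38.6% of these values lay on a step (4.0% by chance), so a fragment may be less than a step. The fragment numbers given below would then be too low. The podocyte label was checked against 12 markers. Of these, 11 had a locus and 5 had a mean of at least 1 FPKM, among them *Podxl*, *Synpo*, *Cd2ap* and *Actn4*. Of the defining markers, *Nphs1* (nephrin) stood at 0.618 to 0.942 FPKM and *Wt1* at 0.0104 to 0.0731 FPKM. Of the 5 markers with a mean of at least 1 FPKM, 4 were above 0 in all libraries. The median log2 fold change of these 4 against HG was 0.07 with rFGF1WT and 0.01 with rFGF1ΔHBS. Summed over each list, podocyte markers, almost all of it those 5, were at 163 to 170 FPKM under HG and 185 to 200 FPKM with either protein. Tubule markers, almost all of it *Lrp2*, were at 27.3 to 28.9 and 22.5 to 24.4 FPKM. Leukocyte markers were at 50.2 to 53.2 and 63.2 to 67.3 FPKM, almost all of it a locus that merges *Cd68* with the translation factor gene *Eif4a1*, so that this level cannot be given to *Cd68*, and *Ptprc*, the defining marker, stayed at or below 0.0548 FPKM. Mesangial and fibroblast markers were at 45.5 to 48.4 and 42.5 to 47.1 FPKM, and endothelial markers at 0.0450 to 0.0727 and 0.133 to 0.167 FPKM. The part of these shifts in the results was not tested. Within this single line, fewer cells with a marker cannot be told apart from less of its RNA per cell.

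Differences were tested with limma on log2(FPKM + 1) in one fit of all 6 libraries over the 10562 loci with a mean of at least 1 FPKM. The p-values were adjusted by the Benjamini-Hochberg method over all of these loci. A gene is said to have risen or fallen where its adjusted p was under 0.05, and is called where the change was also at least 2-fold. Log2 fold changes on this scale understate the change of low genes. Of the 9 ETS factors, 8 were tested. *Etv1* was below the filter, and *Etv4* and *Etv5* reached it only through the libraries with FGF1, so the counts that follow carry no weight as support.

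With both FGF1 proteins the messages of *Etv4* and *Etv5* rose from near the floor to within the range of the other ETS factors, and *Elk3* rose by a smaller amount. With rFGF1WT, 2 of the 8 tested factors were called, both higher, where 0.521% of all tested loci were called higher and 1.01% either way. With rFGF1ΔHBS the same 2 genes were called, where 0.454% of loci were called higher and 0.899% either way. With each protein 3 of 8 rose and 0 fell. Of all tested loci, 6.19% passed with rFGF1WT (3.26% higher, 2.94% lower) and 6.26% with rFGF1ΔHBS (3.37% higher, 2.89% lower). With rFGF1WT, the libraries of 5 of the 9 factors lay above those of HG without overlap, and those of 2 lay below. The shares of all tested loci were 24.1% and 34.1%, 58.2% together. With rFGF1ΔHBS, 5 lay above and 1 below, beside 24.4% and 32.9% of tested loci, 57.3% together. *Etv1*, 1 of the 5 with each protein, was not among the tested loci. The median log2 fold change of the 8 tested factors was 0.19 with rFGF1WT and 0.34 with rFGF1ΔHBS, beside -0.04 and -0.04 over all tested loci. Both comparisons share the HG libraries, and the values of each protein are therefore set side by side.

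**Figure D1:**
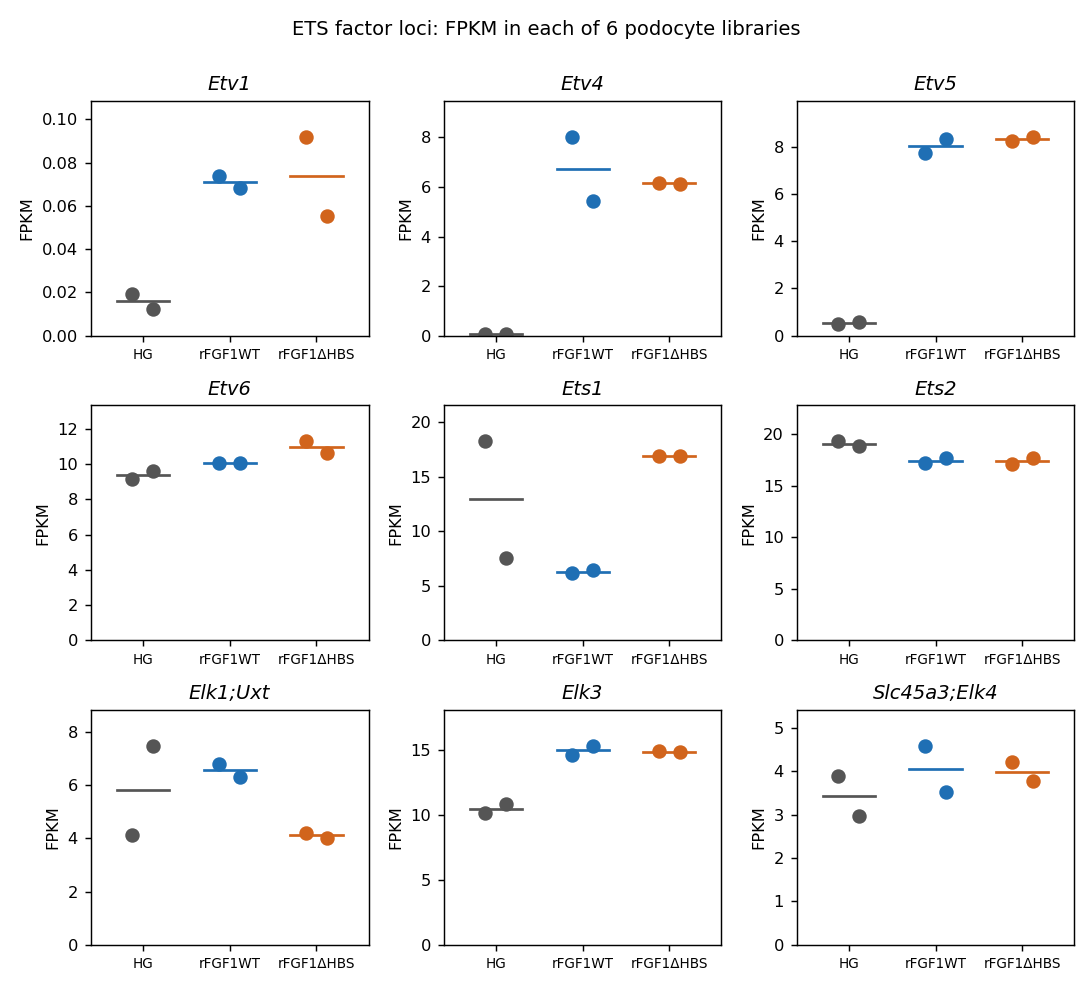
FPKM of the 9 ETS factor loci in each library (points), by treatment, with the mean of the 2 libraries as a bar; each vertical axis starts at 0 and has its own scale. *Etv4* and *Etv5* stood at 0.578 FPKM or less under HG and at 5.42 FPKM or more in every library with FGF1, while the HG libraries of *Ets1* lay as far apart as 7.56 and 18.2 FPKM.

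*Etv4*, which encodes the PEA3 protein itself, is encoded between bases 101769742 and 101785371 of chromosome 11 (GRCm38, as for all genes below). The gene stood at 0.0580 and 0.0786 FPKM in the HG libraries, 8.03 and 5.42 FPKM with rFGF1WT, and 6.17 and 6.12 FPKM with rFGF1ΔHBS. All 4 libraries with FGF1 were far above both HG libraries, and those of rFGF1ΔHBS lay between those of rFGF1WT. The log2 fold change against HG was 2.83 (95% confidence interval 2.35 to 3.31, adjusted p = 0.0102) with rFGF1WT and 2.74 (2.26 to 3.22, adjusted p = 0.0115) with rFGF1ΔHBS. On the scale of FPKM the mean was 98.6 times that of HG with rFGF1WT and 90.0 times with rFGF1ΔHBS. These ratios are imprecise, because 0.0580 and 0.0786 FPKM correspond to no more than about 3.19 and 4.21 fragments at the longest annotated transcript of *Etv4* if the step above is 1 fragment. With a pseudocount of 0.1 in place of 1, the log2 fold change of *Etv4* was 5.32 with rFGF1WT. Without the first or the second HG library its adjusted p was 0.0580 and 0.0504 with rFGF1WT and 0.0627 and 0.0552 with rFGF1ΔHBS, and without the first or the second library of rFGF1ΔHBS it was 0.0587 and 0.0575 in that comparison.

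*Etv5*, the closest paralog of *Etv4* in this set, lies on chromosome 16 from 22381309 to 22439719. It stood at 0.486 and 0.578 FPKM under HG, at 7.72 and 8.31 FPKM with rFGF1WT and at 8.23 and 8.42 FPKM with rFGF1ΔHBS. The replicates of each group lay close together, and the 4 libraries with FGF1 did not overlap with HG. The mean was 15.1 times that of HG with rFGF1WT and 15.7 times with rFGF1ΔHBS. The log2 fold change was 2.56 (2.36 to 2.75, adjusted p = 0.00158) with rFGF1WT and 2.61 (2.41 to 2.80, adjusted p = 0.00199) with rFGF1ΔHBS, and it stayed called in every alternative run, with adjusted p between 0.00156 and 0.0251. Among all 10562 tested loci, *Etv4* ranked 19 and 23 by log2 fold change with rFGF1WT and rFGF1ΔHBS, and *Etv5* ranked 26 and 30. Among the 10272 of these above 0 in all libraries, *Etv4* ranked 2 and 4, and *Etv5* ranked 6 and 7.

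*Etv1*, the third PEA3 gene, lies on chromosome 12 from 38779380 to 38870484. It was at 0.0195 and 0.0125 FPKM under HG, 0.0738 and 0.0684 FPKM with rFGF1WT, and 0.0920 and 0.0555 FPKM with rFGF1ΔHBS. The 4 libraries with FGF1 were above both HG libraries, but at most about 14.1 fragments stood behind any of these values if the step above is 1 fragment. In a fit without the filter on low levels its log2 fold change was 0.08 with either protein (limma, adjusted p = 0.202 and 0.184), and no change passed the threshold at this depth. That scale understates changes at such levels. On the scale of FPKM the mean was 4.45 times that of HG with rFGF1WT and 4.61 times with rFGF1ΔHBS, ratios that are imprecise with so few fragments. *Etv1* stayed near 0 where *Etv4* and *Etv5* did not. The 3 PEA3 genes together made up 0.861% and 1.15% of the FPKM summed over the 9 loci under HG, 21.1% and 18.9% with rFGF1WT, and 17.4% and 17.7% with rFGF1ΔHBS. Their own sum overlapped between the proteins, at 15.8 and 13.8 FPKM with rFGF1WT and 14.5 and 14.6 FPKM with rFGF1ΔHBS. The share also depends on the other loci, among them *Ets1*, at 6.14 and 6.44 FPKM with rFGF1WT and 16.9 and 16.9 FPKM with rFGF1ΔHBS.

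**Figure D2:**
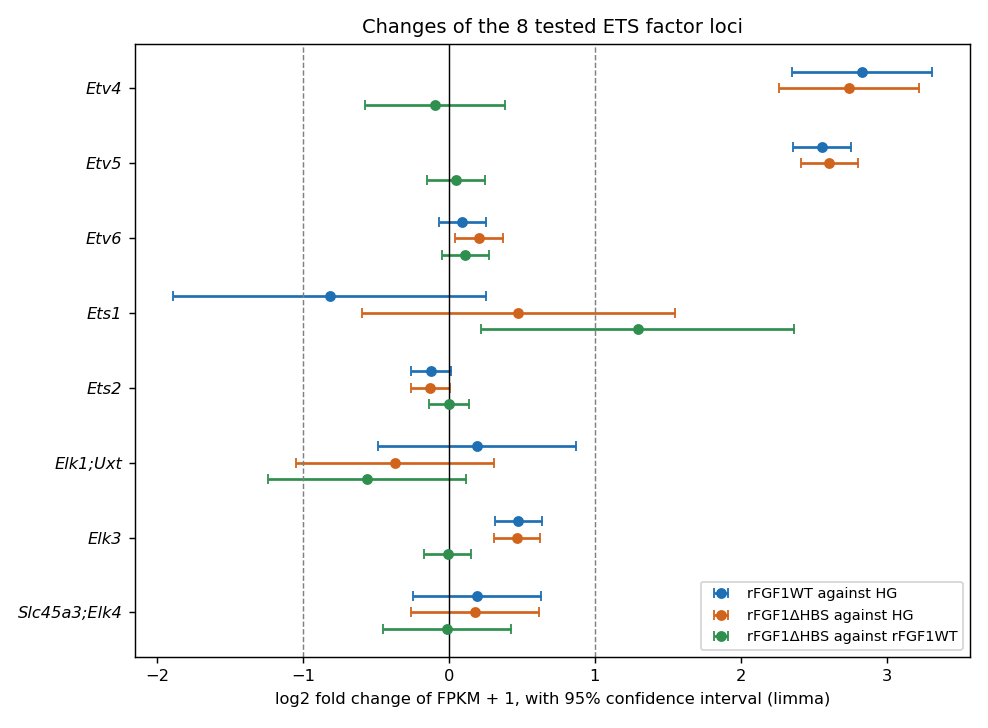
Log2 fold change of FPKM + 1 for the 8 tested ETS factor loci (points) with its 95% confidence interval from limma (lines), in 3 comparisons marked by colour; dashed lines mark 2-fold. The intervals of *Etv4* and *Etv5* against HG lie wholly above 2-fold with both proteins, and those of *Elk3* lie above 0 and below 2-fold.

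Among the ternary complex factors, *Elk3* rose with both proteins. *Elk3*, which encodes a factor that represses transcription until it is phosphorylated, lies on chromosome 10 from 93247414 to 93311135. It stood at 10.2 and 10.8 FPKM under HG, 14.6 and 15.3 FPKM with rFGF1WT, and 14.9 and 14.9 FPKM with rFGF1ΔHBS. Every library with FGF1 was above both HG libraries. The log2 fold change was 0.48 (0.32 to 0.64, adjusted p = 0.0266) with rFGF1WT and 0.47 (0.31 to 0.63, adjusted p = 0.0283) with rFGF1ΔHBS, or 1.43 and 1.42 times the mean of HG. In a fit of only the 4 libraries compared the adjusted p was 0.0716 and 0.0666, and without any single library it was 0.0659 to 0.108.

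The other ternary complex factors had loci that merge them with a neighbour. *Elk1*, on chromosome X from 20933395 to 20950608, shares its locus with *Uxt*, which is on the same strand and overlaps it by 8887 bases, so the fragments of the pair cannot be told apart. The merged locus stood at 4.13 and 7.47 FPKM under HG, 6.78 and 6.32 FPKM with rFGF1WT, and 4.21 and 4.02 FPKM with rFGF1ΔHBS. The HG libraries lay far apart and overlapped with both treated groups, and the log2 fold change was 0.19 (-0.49 to 0.87, adjusted p = 0.680) with rFGF1WT and -0.37 (-1.05 to 0.31, adjusted p = 0.437) with rFGF1ΔHBS. *Elk4*, on chromosome 1 from 132007607 to 132032612, shares its locus with *Slc45a3*, a transporter gene that ends 24637 bases upstream. This locus was at 3.88 and 2.96 FPKM under HG, 4.59 and 3.51 FPKM with rFGF1WT, and 4.21 and 3.78 FPKM with rFGF1ΔHBS, and the groups overlapped. Its log2 fold change was 0.19 (-0.25 to 0.63, adjusted p = 0.522) and 0.18 (-0.26 to 0.62, adjusted p = 0.547).

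*Ets1*, the founding gene of the family, lies on chromosome 9 from 32636221 to 32757820. It was at 18.2 and 7.56 FPKM in the HG libraries, 6.14 and 6.44 FPKM with rFGF1WT, and 16.9 and 16.9 FPKM with rFGF1ΔHBS. One HG library stood near rFGF1ΔHBS and the other just above rFGF1WT, and neither comparison with HG passed the threshold (log2 fold change -0.82, -1.89 to 0.26, adjusted p = 0.301, and 0.48, -0.60 to 1.55, adjusted p = 0.519). These values rest on the HG libraries. Without the second, the log2 fold change was -1.40 (adjusted p = 0.0226) with rFGF1WT and -0.11 (adjusted p = 0.468) with rFGF1ΔHBS. Without the first, it was -0.23 (adjusted p = 0.231) and 1.06 (adjusted p = 0.0434). The 3 libraries with *Ets1* at 16.9 FPKM or more had *Elk1*;*Uxt* at 4.02 to 4.21 FPKM, and the other 3, with *Ets1* at 6.14 to 7.56 FPKM, had it at 6.32 to 7.47 FPKM. A difference of 2-fold or more in FPKM + 1 between replicates was seen in 5.07% of the tested loci under HG, 5.16% with rFGF1WT and 4.98% with rFGF1ΔHBS.

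*Ets2*, on chromosome 16 from 95702075 to 95721051, was the member with the highest mean level in each group. It stood at 19.3 and 18.8 FPKM under HG, 17.2 and 17.7 FPKM with rFGF1WT, and 17.1 and 17.7 FPKM with rFGF1ΔHBS. Both treated groups lay below HG, with a log2 fold change of -0.12 (-0.26 to 0.01, adjusted p = 0.230) and -0.13 (-0.26 to 0.01, adjusted p = 0.229). *Etv6*, on chromosome 6 from 134035700 to 134270158, was at 9.14 and 9.63 FPKM under HG, 10.1 and 10.1 FPKM with rFGF1WT, and 11.3 and 10.7 FPKM with rFGF1ΔHBS. The 3 groups did not overlap, but the log2 fold change of 0.09 (-0.07 to 0.26, adjusted p = 0.415) and 0.21 (0.04 to 0.37, adjusted p = 0.134) did not pass the threshold.

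**Figure D3:**
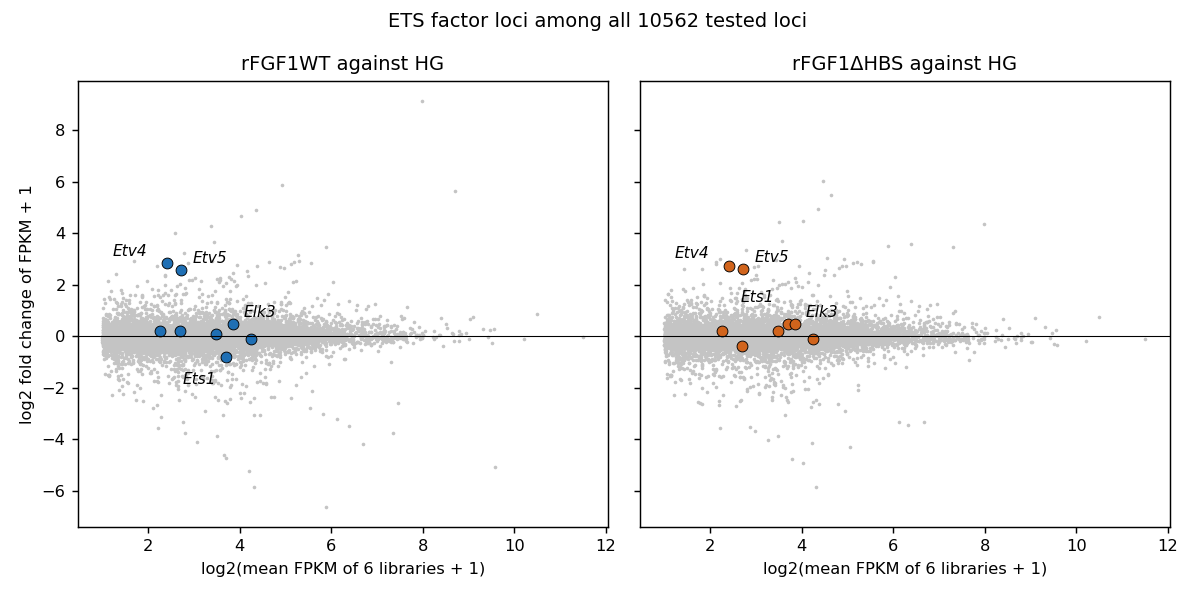
Log2 fold change of FPKM + 1 against the log2 of the mean FPKM of the 6 libraries plus 1, for the 10562 tested loci (grey) and the 8 tested ETS factor loci (coloured), with rFGF1WT on the left and rFGF1ΔHBS on the right. *Etv4* and *Etv5* lie in the upper part of the cloud at 2.83 and 2.56 with rFGF1WT and at 2.74 and 2.61 with rFGF1ΔHBS, and the other factors lie within 1 of the zero line.

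The order of the factors changed with FGF1. Under HG it ran from *Ets2* through *Ets1*, *Elk3*, *Etv6*, *Elk1*;*Uxt*, *Slc45a3*;*Elk4*, *Etv5* and *Etv4* to *Etv1*, and only *Ets1* and *Elk3* overlapped as neighbours. With rFGF1WT, *Etv5*, *Etv4*, *Elk1*;*Uxt* and *Ets1* followed *Etv6*, and each of the first 3 of these overlapped with the next. With rFGF1ΔHBS, *Etv5* and *Etv4* ranked 5 and 6, above *Elk1*;*Uxt* and *Slc45a3*;*Elk4*, which overlapped with each other.

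The proteins were compared directly over all 8 tested factors. None was called, where 0.35% of all tested loci were, none had an adjusted p under 0.05 (0.549% of loci, 0.294% higher with rFGF1ΔHBS), and 1, *Ets1*, had an unadjusted p under 0.05 (4.87% of loci). The log2 difference, rFGF1ΔHBS minus rFGF1WT, was -0.09 for *Etv4* with a 95% confidence interval of -0.57 to 0.39, which spans 0.672 to 1.31 times the level with rFGF1WT plus 1. For *Etv5* it was 0.05 (-0.15 to 0.25, or 0.903 to 1.19 times), and for *Elk3* -0.01 (-0.17 to 0.15). A difference beyond these limits was not seen, and smaller ones could not be detected with 2 libraries per group. *Ets1* was 2.68 times as high with rFGF1ΔHBS as with rFGF1WT, and its 4 libraries did not overlap. Its log2 difference was 1.29 (0.22 to 2.37), with an unadjusted p of 0.0279 and an adjusted p of 0.905 (limma). In the fit of only these 4 libraries, where the spread of the HG libraries did not enter, the adjusted p was 0.0315. For *Elk1*;*Uxt* the libraries did not overlap in the opposite direction (-0.56, -1.24 to 0.12, adjusted p = 0.905), and for *Etv6* those of rFGF1ΔHBS were higher (0.11, -0.05 to 0.28, adjusted p = 0.905). Libraries that did not overlap were seen for 18.4% of all tested loci in the higher and 16.1% in the lower direction, 34.5% together.

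Over the 6 libraries, Pearson's r of log2(FPKM + 1) between *Etv4* and *Etv5* was 0.990. Both were low under HG and higher with FGF1, so r was bound to be high. Within the treated groups the replicates went opposite ways. With rFGF1WT *Etv4* was at 8.03 and 5.42 FPKM and *Etv5* at 7.72 and 8.31 FPKM. With rFGF1ΔHBS they were at 6.17 and 6.12 FPKM and at 8.23 and 8.42 FPKM. Under HG both were higher in the second library. Outside the set, the loci most like *Etv4* by this measure were *Wdr77*;*Gm42890*;*Ovgp1*, *Lbh*, *Hgfac*, *Acsl5* and *Pcmtd2*, with r from 0.9987 to 0.9995. *Lbh*, for example, was at 18.1 and 18.6 FPKM under HG, 31.1 and 28.7 FPKM with rFGF1WT, and 28.9 and 29.1 FPKM with rFGF1ΔHBS, so it too was highest in the first library of rFGF1WT. The loci most like *Etv5* were *Mical2*;*AC132392.1*;*Micalcl*, *Cnot9*, *Zxdb*, *Gm3608* and *St3gal1*, with r from 0.9991 to 0.9996. *St3gal1* stood at no more than 1.68 FPKM under HG and 3.41 to 3.63 FPKM with FGF1, whereas *Zxdb* and *Gm3608* were listed at 0 in both HG libraries. These are descriptions of 6 libraries that share their groups, and the closest of 10562 loci must be close.

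Of 17 further genes long used as readouts of ERK activity, all tested, 7 rose and 0 fell with each protein, and the median log2 fold change was 0.99 with rFGF1WT and 1.03 with rFGF1ΔHBS. Over all tested loci, 3.26% rose and 2.94% fell with rFGF1WT, and 3.37% rose and 2.89% fell with rFGF1ΔHBS. This list and those that follow were chosen with earlier results of these data known, so their counts are descriptions. *Ccnd1*, the D-type cyclin that FGF induces, stood at 5.53 and 5.05 FPKM under HG, 40.2 and 39.5 FPKM with rFGF1WT, and 39.1 and 42.5 FPKM with rFGF1ΔHBS. Its log2 fold changes of 2.70 (adjusted p = 0.00145) and 2.73 (adjusted p = 0.00161) were of the size of those of *Etv4* and *Etv5*. *Spry4*, a feedback inhibitor of the receptor, was near the floor under HG as *Etv4* was (0.0568 and 0.0590 FPKM) and reached 1.48 to 1.69 FPKM with FGF1. Like *Etv4*, it passed the filter on low levels only through the libraries with FGF1, so its place among the 7 is a description. *Phlda1* (14.7 and 18.0 FPKM under HG, 40.1 to 43.7 FPKM with FGF1), the ephrin receptor *Epha2* (log2 fold change 1.11 and 1.17) and the ERK phosphatase *Dusp5* (1.05 and 1.05) were called with both proteins, and *Spred3*, another inhibitor of the cascade, with rFGF1ΔHBS alone (1.03, adjusted p = 0.0392, beside 0.80 and adjusted p = 0.0656 with rFGF1WT). The difference of *Spred3* between the proteins did not pass the threshold (0.23, -0.19 to 0.64, adjusted p = 0.905). The remaining genes with an adjusted p under 0.05 were *Myc* and *Spry2* with rFGF1WT and *Ier3* with rFGF1ΔHBS. Compared directly between the proteins, 0 of the 17 had an adjusted p under 0.05 (limma), so passing with 1 protein alone does not show a difference between them. Without any single library, 3 to 5 of the 17 had an adjusted p under 0.05 with each protein.

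**Figure D4:**
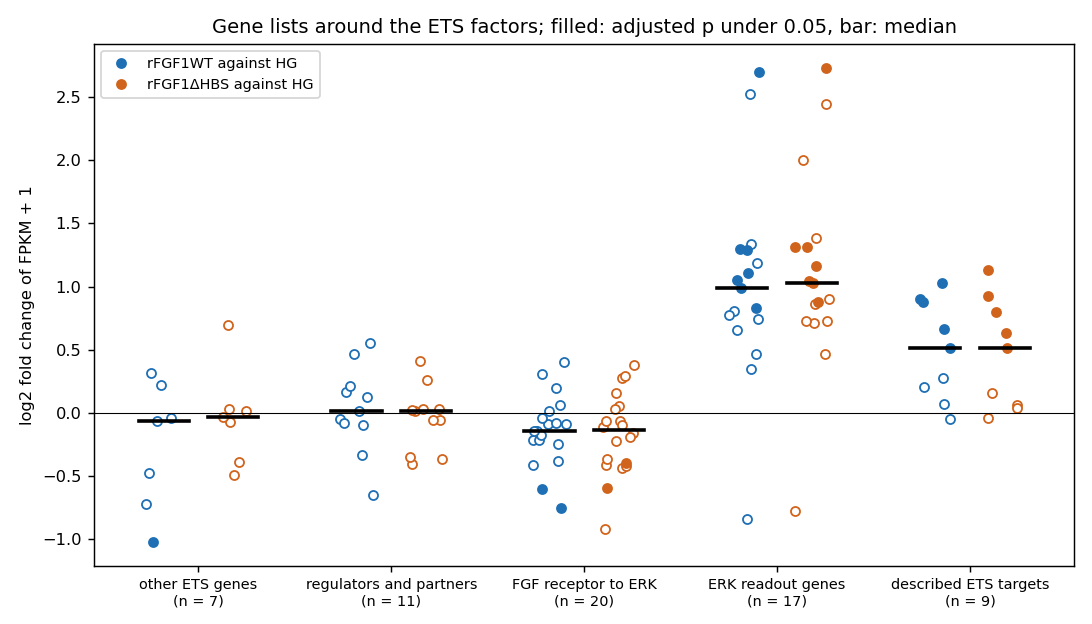
Log2 fold change of FPKM + 1 for the tested genes of 5 lists (points), with rFGF1WT in blue and rFGF1ΔHBS in orange; filled points have an adjusted p under 0.05 and black bars are medians. The ERK readouts centre on 0.99 and 1.03 and the described ETS targets on 0.51 and 0.51, while the medians of the other 3 lists lie between -0.14 and 0.01.

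Of 14 genes described as targets of ETS factors in other cells, 9 were tested, and 5 rose and 0 fell with each protein (median log2 fold change 0.51 and 0.51). Over all tested loci, 3.26% rose with rFGF1WT and 3.37% with rFGF1ΔHBS, and the list was chosen with earlier results known. *Plau*, which encodes the urokinase that activates plasminogen, was called with both, from 18.5 and 14.9 FPKM under HG to 36.8 and 33.1 FPKM with rFGF1WT and 36.4 and 38.9 FPKM with rFGF1ΔHBS (1.03, adjusted p = 0.0252, and 1.13, adjusted p = 0.0219). The others that rose were *Plaur*, its receptor (0.90 and 0.79), the gelatinase *Mmp9* (0.88 and 0.93), *Ptgs2* (0.67 and 0.63) and the hepatocyte growth factor receptor *Met* (0.51 and 0.51). *Mmp2*, the list's most abundant gene, did not pass (0.20, adjusted p = 0.195, and 0.16, adjusted p = 0.290). *Ret* stayed at or below 0.0382 FPKM. Without any single library, at most 1 of the 9 had an adjusted p under 0.05 with either protein.

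Of 10 immediate early genes driven by serum response factor with the Elk proteins, 6 were tested and 0 had an adjusted or an unadjusted p under 0.05 in either comparison with HG (limma). Over all tested loci, 6.19% and 6.26% had an adjusted p under 0.05 with rFGF1WT and rFGF1ΔHBS, and 24.8% and 24.9% an unadjusted one. The cells were sampled after the 1 h pretreatment and 12 h in high glucose, and earlier times were not measured, so 0 of 6 does not show that these genes did not respond. The 4 of these above 0 in all libraries had a median log2 fold change of 0.03 and 0.37. *Egr1* was at 14.0 and 15.2 FPKM under HG and 13.3 to 15.0 FPKM with FGF1. *Mcl1*, the most abundant, was at 16.1 and 72.5 FPKM under HG and 80.8 to 87.0 FPKM with FGF1 (1.26, adjusted p = 0.360, and 1.24, adjusted p = 0.371), and without the second HG library its log2 fold change was 2.31 (adjusted p = 0.0116) and 2.29 (adjusted p = 0.0111). Of the 2 loci of *Junb*, the one with the higher mean was used and was listed at 0 in 3 libraries, and *Ier2* was listed at 0 in 4.

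Over all tested loci, 2.94% fell with rFGF1WT and 2.89% with rFGF1ΔHBS. Of 22 genes on the route from the FGF receptors to ERK, 20 were tested, and 0 rose and 2 fell with each protein. These were *Gab1*, a docking adaptor (10.2 and 10.7 FPKM under HG, 6.63 and 6.44 FPKM with rFGF1WT, 7.93 and 7.49 FPKM with rFGF1ΔHBS), with a log2 fold change of -0.60 (adjusted p = 0.0189) and -0.40 (adjusted p = 0.0405), and *Fgfr2*, in a locus merged with *Ctbp2*, with -0.75 (adjusted p = 0.0170) and -0.60 (adjusted p = 0.0248). The locus of *Mapk3*, which encodes ERK1, is merged with *Gdpd3*. It was the most abundant of the list and did not pass (-0.14, adjusted p = 0.421, and -0.37, adjusted p = 0.10). The list's median was -0.14 and -0.13. Without any single library, 0 of the 20 passed with rFGF1WT and at most 1 with rFGF1ΔHBS.

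Of 11 regulators and partners of the factors, all tested, 0 had an adjusted p under 0.05 in any comparison (limma), and 1 had an unadjusted p under 0.05 with each protein against HG, where 24.8% and 24.9% of all tested loci did. *Cic*, which encodes Capicua, was at 23.4 and 25.9 FPKM under HG, 23.3 and 24.4 FPKM with rFGF1WT, and 22.5 and 24.9 FPKM with rFGF1ΔHBS, and all 3 groups overlapped (-0.05, adjusted p = 0.771, and -0.05, adjusted p = 0.731). The intervals of *Cic* ran from -0.27 to 0.18 and from -0.28 to 0.17. The list's median log2 fold change was 0.01 with either protein.

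Of 17 other genes of the mouse ETS family, 14 had a locus and 7 were tested. The other 7 had means of 0.00124 to 0.40 FPKM, among them the endothelial factors *Erg* and *Fli1*. None of the 7 rose, and 1, *Gabpa*, which encodes the DNA-binding subunit of GA-binding protein and was the most abundant, fell with rFGF1WT, while with rFGF1ΔHBS 0 had an adjusted or unadjusted p under 0.05 (limma). Over all tested loci, 2.94% fell with rFGF1WT, and with rFGF1ΔHBS 6.26% had an adjusted and 24.9% an unadjusted p under 0.05. *Gabpa* was at 22.9 and 23.8 FPKM under HG, 10.9 and 11.1 FPKM with rFGF1WT, and 23.9 and 23.2 FPKM with rFGF1ΔHBS. Its log2 fold change was -1.02 (-1.16 to -0.89, adjusted p = 0.00576) with rFGF1WT and 0.01 (-0.13 to 0.15, adjusted p = 0.928) with rFGF1ΔHBS. It was the one ETS gene tested, of the 8 and these 7, whose level differed between the proteins past the threshold (1.03, 0.90 to 1.17, adjusted p = 0.00936). Levels of other loci moved within a group, as those of *Elf1* did with rFGF1WT (8.51 and 17.7 FPKM). Whether the levels of *Gabpa* vary in this way apart from treatment was not tested.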

How the data were processed

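Poly(A) RNA of MPCs was sequenced as paired ends, and the authors deposited one table of FPKM for 24469 loci in 6 libraries. The submitters' processing notes name Bowtie 0.12.2, HISAT2 2.0, StringTie 1.3.0 and mm8, with no role given. Transcript identifiers were placed on GRCm38 with GENCODE (99.6% found), and no coordinate was converted. FPKM carry no read totals, so no count model was used. Loci with a mean of at least 1 FPKM were tested as log2(FPKM + 1) with limma 3.58.1 in R 4.3.3, in one fit of 3 groups with Benjamini-Hochberg adjustment. Scripts were tested on simulated data. The members, lists and tests were chosen with earlier results of these data known. In each list, genes past both thresholds against HG and the most abundant gene were to be named. Outside that rule, *Plaur*, *Mmp9*, *Ptgs2*, *Met*, *Myc*, *Spry2*, *Ier3*, *Gab1*, *Fgfr2*, *Egr1*, *Junb*, *Ier2*, *Ret*, *Erg* and *Fli1* were named after their values were seen. Alternatives changed the pseudocount, filter, scaling, libraries and replicate block. Those for genes outside the set were added after the data were seen.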

Additional observations from a re-analysis of the deposited data

Results flagged for a closer look

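*Gabpa* was flagged because its effect against HG differed between the proteins. The log2 fold change was -1.02 with rFGF1WT and 0.01 with rFGF1ΔHBS, and the direct comparison of rFGF1ΔHBS with rFGF1WT gave a difference of 1.03 (adjusted p = 0.00936, limma). Both rFGF1WT libraries (10.9 and 11.1 FPKM) lay below all 4 others (22.9 to 23.9 FPKM). Without each library in turn the adjusted p of that difference was 0.0351 to 0.0442, and with the replicate number as a block it was 0.0835. Groups of 2 libraries are too small for a check of single outlying libraries. Replicates differed 2-fold or more in FPKM + 1 for 5.07% of the tested loci under HG, 5.16% with rFGF1WT and 4.98% with rFGF1ΔHBS. With 2 libraries per group, levels that vary in this way may fall along the groups, and this was not tested for *Gabpa*.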

How the results depend on the processing

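The direction of *Etv4*, *Etv5* and *Elk3* against HG was kept in every alternative run, and *Etv5* stayed called. With rFGF1WT 2 ETS factors were called, *Etv4* and *Etv5*, and 1, *Etv5*, with a filter at 5 FPKM or the replicate block. With rFGF1ΔHBS the same 2 were called, and 1, *Etv5*, with that filter or block. The filter removed *Etv4*, whose mean is below 5 FPKM. Between the proteins 0 were called, and 1, *Ets1*, with only the 4 libraries compared. Without single libraries the factors called were not always the same. *Etv4* then dropped out in some runs. The log2 fold change of *Ets1* was -1.40 with rFGF1WT without the second HG library, and 1.06 with rFGF1ΔHBS without the first. Over all loci, 107 were called with rFGF1WT (69 with that filter, 39 with the block, 654 without the 2-fold limit), 95 with rFGF1ΔHBS (151 with a pseudocount of 0.1, 36 with the block, 661 without the limit) and 37 between the proteins (18, 6 and 58 with filter, block and no limit, and 43 to 103 without single libraries). The libraries of a number share only that number (correlations of deviations -0.02, 0.10 and -0.05). With the block the adjusted p was 0.0521 and 0.0610 for *Etv4* and 0.0790 and 0.0819 for *Elk3*. Without single libraries some log2 differences changed sign. They ranged from -0.17 to 0.55 for *Elk1* with rFGF1WT and from -0.11 to 1.06 for *Ets1* with rFGF1ΔHBS. Between the proteins they ranged from -0.34 to 0.15 for *Etv4*, -0.023 to 0.021 for *Ets2*, -0.041 to 0.023 for *Elk3* and -0.16 to 0.14 for *Elk4*. Those of *Cic* ranged from -0.12 to 0.026 and -0.13 to 0.017, and those of *Gabpa* with rFGF1ΔHBS from -0.018 to 0.039. Other causes were not tested. With 2 libraries per group and no read totals, small changes were not detectable.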
